A study of Mus musculus with 4 samples.

Results

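The ISG15 conjugation system is described here by 5 genes of CT26 cells: the modifier gene Isg15, the E1 gene Uba7, the ligase genes Herc6 and Trim25 and the protease gene Usp18. They were found by gene name in the joined deposited tables, which hold 4295 genes, and all 5 were listed there. CT26 is a transplantable colon carcinoma line from BALB/c mice. Wild-type CT26 cells were cultured with the solvent DMSO (control, 2 libraries) or with 25 µM riluzole (2 libraries) for 24 h, and polyadenylated RNA was sequenced. Riluzole, given to patients with amyotrophic lateral sclerosis, reduces glutamate release, and the study's title ties it to cGAS-STING signalling and to PD-1 blockade.

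ISG15 is a ubiquitin-like protein whose gene is strongly switched on by type I interferon. Like ubiquitin, it is joined to lysines of other proteins by a cascade: an E1 enzyme (UBA7, which serves ISG15) activates it, an E2 enzyme (UBE2L6) carries it, and an E3 ligase passes it to the target. HERC6 is the main ISG15 ligase of mouse cells, a task done in human cells by HERC5. TRIM25 is best known for ubiquitinating the RNA sensor RIG-I, and human TRIM25 was reported to act also as an ISG15 ligase. USP18 takes ISG15 off again and, apart from that activity, binds the type I interferon receptor and dampens its signal.

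The reference sequence just before the start sites of the members is shown first. Whether it has a part in the changes given below was not tested. Sequences matched by symbol for 4 of the 5 genes. They are from RefSeq, build GRCm38.p6 (strain C57BL/6J), read 5′ to 3′ on the gene's own strand, and cover the 250 bases before the annotated start: Isg15 chr4:156200819-156201068 (minus strand), Uba7 chr9:107975317-107975566, Herc6 chr6:57580742-57580991 and Trim25 chr11:88999153-88999402 (plus strand). Capitals mark matches to a 10-base motif, GAAA then any 2 bases (NN) then GAAA, the core of the interferon-stimulated response element that interferon-activated transcription factors bind.
Isg15: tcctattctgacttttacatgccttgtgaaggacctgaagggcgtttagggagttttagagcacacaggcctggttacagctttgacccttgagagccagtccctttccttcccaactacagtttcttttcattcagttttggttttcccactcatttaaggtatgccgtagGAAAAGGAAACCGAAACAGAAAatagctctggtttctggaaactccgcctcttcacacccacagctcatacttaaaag
Uba7: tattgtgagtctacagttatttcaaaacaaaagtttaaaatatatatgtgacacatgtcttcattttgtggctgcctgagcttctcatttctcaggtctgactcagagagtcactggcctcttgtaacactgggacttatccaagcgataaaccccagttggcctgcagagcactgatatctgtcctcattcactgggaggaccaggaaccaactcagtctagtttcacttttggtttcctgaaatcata
Herc6: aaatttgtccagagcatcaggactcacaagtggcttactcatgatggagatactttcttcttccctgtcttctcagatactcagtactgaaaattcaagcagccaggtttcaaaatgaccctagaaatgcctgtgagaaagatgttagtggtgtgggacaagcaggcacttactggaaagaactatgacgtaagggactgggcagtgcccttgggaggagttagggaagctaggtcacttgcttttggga
Trim25: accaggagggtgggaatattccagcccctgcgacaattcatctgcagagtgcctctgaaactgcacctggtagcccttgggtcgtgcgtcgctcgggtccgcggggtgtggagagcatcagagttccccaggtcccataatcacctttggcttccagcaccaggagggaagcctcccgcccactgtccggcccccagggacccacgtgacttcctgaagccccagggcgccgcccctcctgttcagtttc
The Isg15 stretch held 3 overlapping matches in 1 run, from base -78 to base -57 counted from the start site. The stretches of Uba7, Herc6 and Trim25 held none, which says only that these letters are not in these windows. On either strand, the motif occurred in the same 250-base window of 936 of 27025 reference genes (3.46%). It occurred in 6.02% of the 1363 genes called higher with riluzole that have a reference promoter, and in 3.09% of the 1976 called lower. The longer form that ends in CT occurred in 0.255% of reference genes, in 1.98% of the same genes called higher, in 0.202% of those called lower and in 0 of the 4 members. One more motif was searched, TTCNNNGAA (N, any base). It occurred in 8.13% of reference genes, in 6.82% of those called higher, in 6.83% of those called lower and in 0 of the 4 members.

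The deposited tables list only genes with an authors' p-value under 0.05, so each member had to differ between the groups to be listed, and a call on a listed gene is no independent evidence. In edgeR's quasi-likelihood test, adjusted by Benjamini-Hochberg over the 12601 genes that the deposited p-values imply were tested, 1772 listed genes were called higher and 2501 lower (adjusted p under 0.05). The split was 1779 higher and 1656 lower under TMM scaling and 1779 and 1042 under DESeq2 scaling, each with factors recomputed from the listed genes. These scalings moved the median log2 fold change of all listed genes up by 0.10 and 0.17. The spread in edgeR was estimated from the listed genes alone, which were selected by p-value. The SEs and edgeR p-values given here may therefore be too small. With the authors' adjusted p under 0.05, 1214 listed genes were called higher and 1918 lower. Library totals implied by FPKM were 15803444 to 20562946 counts. Whether replicates came from separate cultures is not stated in the labels, so the spread behind the p-values may be technical. Replicates differed beyond counting noise, with a mean chi-square per gene of 3.62 between controls and 3.33 between riluzole libraries. In bulk RNA, more responding cells and more RNA per responding cell cannot be told apart. Of the marker lists, 3 of 8 epithelial genes were listed (Krt8, Krt18 and Krt20; summed normalised counts 978 to 1041 in controls and 1557 to 1611 with riluzole). Of 6 immune markers 1 was listed, the lysosomal Cd68 (183 to 216 and 325 to 327), of 3 fibroblast markers 2 (Col1a1 and Col1a2; 24208 to 26529 and 22149 to 22934), and of 2 endothelial markers none. A marker that is not listed, such as Epcam or Ptprc, is not thereby shown to be at 0. The part of these shifts in the results below was not tested.

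All 5 genes of the ISG15 system were higher with riluzole, where 41.3% of all listed genes were called higher and 99.5% were called in either direction. The protease gene Usp18 rose most (3.70-fold), followed by Uba7 (2.90-fold), Isg15 (2.81-fold), Herc6 (2.32-fold) and Trim25 (1.80-fold). For each member both riluzole libraries lay above both controls, as for 41.4% of listed genes. In the authors' deposited table all 5 have an adjusted p under 0.05, as do 28.3% of listed genes in that direction. All but Trim25 rose at least 2-fold, which 6.64% of listed genes did. Ranked by log2 fold change among the 1780 genes listed as higher, Usp18 stood at 91, Uba7 at 132, Isg15 at 141, Herc6 at 204 and Trim25 at 354.

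Isg15, the modifier (ENSMUSG00000035692; chromosome 4, 156283912 to 156285253, mm39, minus strand), had 641 normalised counts in control replicate 1, 561 in control replicate 2, 1576 in riluzole replicate 1 and 1783 in riluzole replicate 2, the order kept below. The groups did not overlap, and the distance between them was several times the spread within either. The group means were 601 ± 56.5 and 1679 ± 146 (SD, n = 2). The log2 fold change was 1.49 ± 0.07 (SE), with an edgeR Benjamini-Hochberg adjusted p of 2.06e-16. Isg15 is the shortest of the 5 gene models at 703 bases and drew 584 to 1627 reads per library. Its coding sequence has a near-identical copy in the reference annotation, AC151275.1, alike at 95.2% over 481 of 483 bases, so reads could be divided between them and its level is less certain.

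Uba7, the E1 that activates ISG15 (ENSMUSG00000032596; chromosome 9, 107852704 to 107861259, plus strand), had 129 and 140 normalised counts in the controls and 377 and 407 with riluzole. Replicates were close in both groups. Means were 135 ± 7.15 and 392 ± 21.5 (SD, n = 2), a log2 fold change of 1.53 ± 0.12 (SE; edgeR adjusted p = 2.14e-11). Uba7 had the fewest reads of the members, 118 to 389 per library. It shares 233 exonic bases with Gm20661 on the same strand.

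The E2 gene Ube2l6, no member of the described set but the step between E1 and ligase (chromosome 2, 84629172 to 84640679), also rose. It had 390 and 351 normalised counts in the controls and 812 and 873 with riluzole, a 2.28-fold rise (log2 fold change 1.19 ± 0.08, SE; edgeR adjusted p = 2.19e-12). The modifier, its E1 and its E2 were all higher in both riluzole libraries.

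The ligase gene Herc6 (ENSMUSG00000029798; chromosome 6, 57557985 to 57641617, plus strand) had 172 and 193 normalised counts in the controls and 391 and 465 with riluzole. The riluzole libraries lay further apart than the controls, and the groups did not overlap. Means were 183 ± 14.9 and 428 ± 52.0 (SD, n = 2), a log2 fold change of 1.21 ± 0.12 (SE; edgeR adjusted p = 1.28e-09). Of its exonic bases, 1269 are shared with Gm45193 on the same strand, which makes its level less certain.

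Trim25 (ENSMUSG00000000275; chromosome 11, 88890202 to 88911119, plus strand) drew the most reads of the members, 1921 to 3779 per library. It had 2108 and 1966 normalised counts in the controls and 3660 and 3669 with riluzole, so that the riluzole libraries nearly coincided. Means were 2037 ± 100 and 3665 ± 5.78 (SD, n = 2). Its log2 fold change of 0.85 ± 0.05 (SE) was the smallest of the 5, with an edgeR adjusted p of 7.73e-15. No near-identical copy or overlapping exon was found for it.

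One more ligase gene, Arih1, whose human protein was also reported to transfer ISG15, went the other way. It had 3910 and 3715 normalised counts in the controls and 3530 and 3357 with riluzole, 0.904 of the control level (log2 fold change -0.15 ± 0.04, SE; edgeR adjusted p = 0.00890). Of all listed genes 58.2% were called lower. The call depended on the setting: in the authors' deposited table its adjusted p is 0.0638, and the edgeR adjusted p was 0.136 without control replicate 1 and 0.153 without riluzole replicate 2. Under TMM scaling it was 0.919, and under DESeq2 scaling the sign changed (log2 fold change 0.02).

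The protease gene Usp18 (ENSMUSG00000030107; chromosome 6, 121222865 to 121247876, plus strand) had 429 and 392 normalised counts in the controls and 1356 and 1680 with riluzole. The riluzole libraries differed from each other by more than for any other member, but both lay far above the controls. Means were 410 ± 26.3 and 1518 ± 229 (SD, n = 2), a log2 fold change of 1.89 ± 0.08 (SE; edgeR adjusted p = 6.97e-17). Usp18 shares 124 exonic bases with Gm44148 on the opposite strand, and no source used here says whether counting used the strand.

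**Figure D1:**
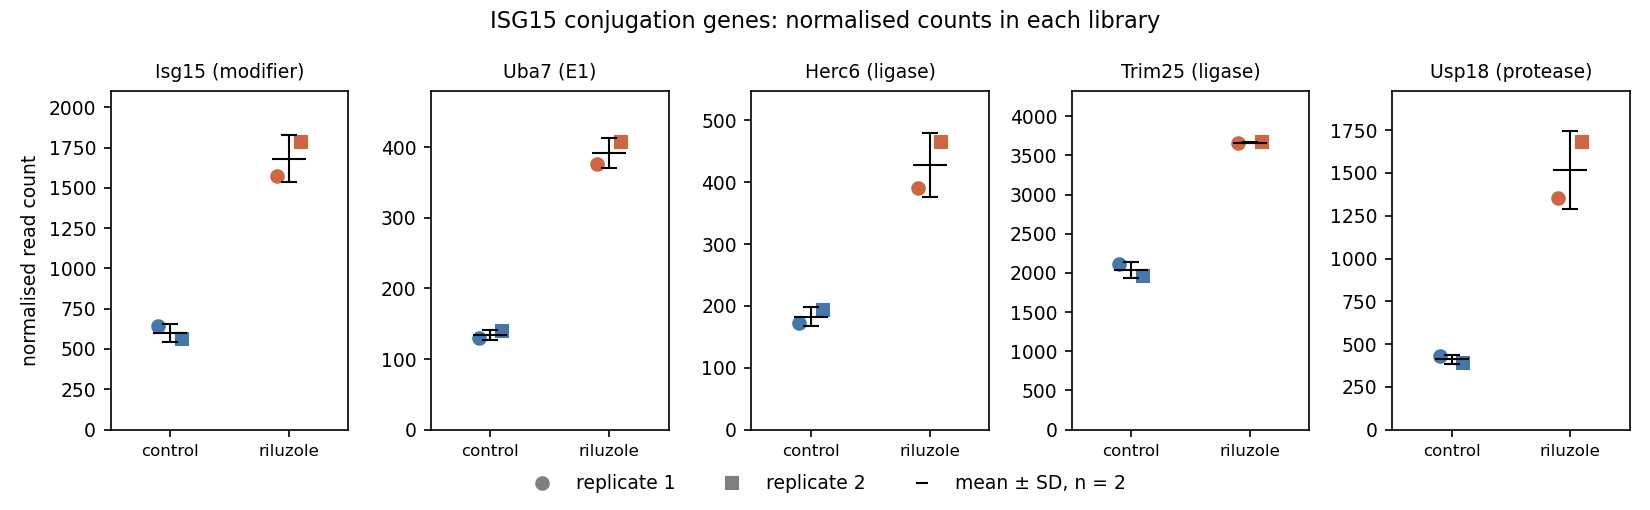
Normalised read counts (vertical axes from 0, 1 scale per gene) of the 5 genes in each library; circles are replicate 1, squares replicate 2, and black bars the mean ± SD (n = 2). Both riluzole libraries lie above both controls for every gene, with the widest riluzole spread for Usp18 (1356 and 1680) and the narrowest for Trim25 (3660 and 3669).

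The deposited FPKM values divide counts by gene length and so allow levels of different genes to be set side by side. The order of genes then depends on the deposited lengths, such as 703 bases for Isg15, 6692 for Uba7 and 9292 for Herc6. Whether the transcripts in these cells have those lengths was not tested. In the controls the level in FPKM was highest for Isg15 (49.4 ± 4.54; SD, n = 2), then Trim25 (20.4 ± 0.965), Usp18 (8.50 ± 0.527), Uba7 (1.16 ± 0.0640) and Herc6 (1.14 ± 0.0952). Neighbours in that order did not overlap except Uba7 (1.12 and 1.21 FPKM) and Herc6 (1.07 and 1.20). With riluzole the order was the same: Isg15 at 136 ± 11.7 FPKM, Trim25 at 36.1 ± 0.0169, Usp18 at 30.9 ± 4.62, Uba7 at 3.33 ± 0.179 and Herc6 at 2.61 ± 0.314. The gap between Usp18 (27.6 and 34.2 FPKM) and Trim25 (36.1 and 36.2 FPKM) was little more than the SD of Usp18.

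Set against all listed genes, Isg15 was above 83.6% of them in FPKM in the controls and above 95.2% with riluzole. Usp18 moved furthest in that ranking, from above 33.9% to above 75.9%, and Trim25 went from 60.8% to 79.6%. Uba7 (7.01% to 13.8%) and Herc6 (6.85% to 10.9%) were among the lowest listed genes in both groups. The E1 and the mouse ligase thus had the lowest FPKM of the 5 in every library.

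Among all 7 listed genes of the conjugation machinery, Arih1 was second to Isg15 in the controls, at 28.6 ± 0.973 FPKM. With riluzole it stood at 25.4 ± 0.930 FPKM, below Trim25 in both libraries. Usp18 was below Ube2l6 in both control libraries (8.87 and 8.12 against 11.3 and 10.2 FPKM) and above it in both riluzole libraries (27.6 and 34.2 against 23.1 and 24.8). That change of order rests on the gene lengths. In normalised counts Usp18 was above Ube2l6 in the controls too (429 and 392 against 390 and 351).

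**Figure D2:**
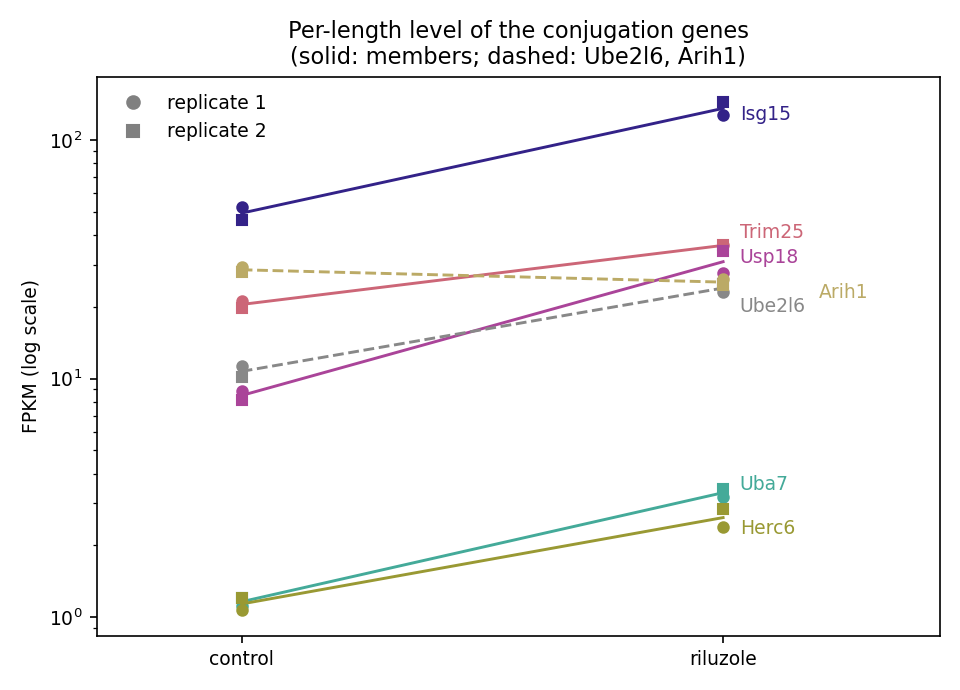
Level in FPKM (log axis) of the 5 genes (solid lines) and of Ube2l6 and Arih1 (dashed) in control and riluzole libraries; lines join group means, circles are replicate 1 and squares replicate 2. Isg15 is highest and Uba7 and Herc6 lowest in both groups, and the lines of Usp18 and Ube2l6 cross.

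Because the members rose by different factors, their levels relative to Isg15 shifted. The FPKM of Trim25 was 40.2% and 42.8% of that of Isg15 in the controls and 28.4% and 25.1% with riluzole. The log2 ratio change was -0.64, larger than the spread within either group. The FPKM of Usp18 was 16.9% and 17.6% of that of Isg15 in the controls and 21.7% and 23.7% with riluzole, a log2 ratio change of 0.40, again without overlap. For Ube2l6 the share went from 21.4% and 22.1% to 18.1% and 17.2% (log2 ratio change -0.30).

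The ratio of Uba7 to Isg15 overlapped between groups, at 2.12% and 2.61% in the controls and 2.51% and 2.40% with riluzole. Its log2 ratio change of 0.06 turned to -0.09 without control replicate 1. The ratio of Herc6 to Isg15 was 2.03% and 2.61% in the controls and 1.88% and 1.97% with riluzole (log2 ratio change -0.26). The size of that change rested on the controls, since it was -0.08 without control replicate 2 and -0.44 without control replicate 1. A two-sided exact permutation test on 2 against 2 libraries cannot give a p below 0.333. That value was reached by Trim25, Usp18, Herc6 and Ube2l6 (0.417 after Benjamini-Hochberg adjustment over 5 ratios), and Uba7 gave an exact p of 1, so this test could not pass a threshold of 0.05 for any ratio. Of the summed FPKM of the 5 genes, Isg15 made up 62.03% and 60.37% in the controls and 64.75% and 65.25% with riluzole, and Trim25 24.93%, 25.85%, 18.37% and 16.4% in the same order.

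**Figure D3:**
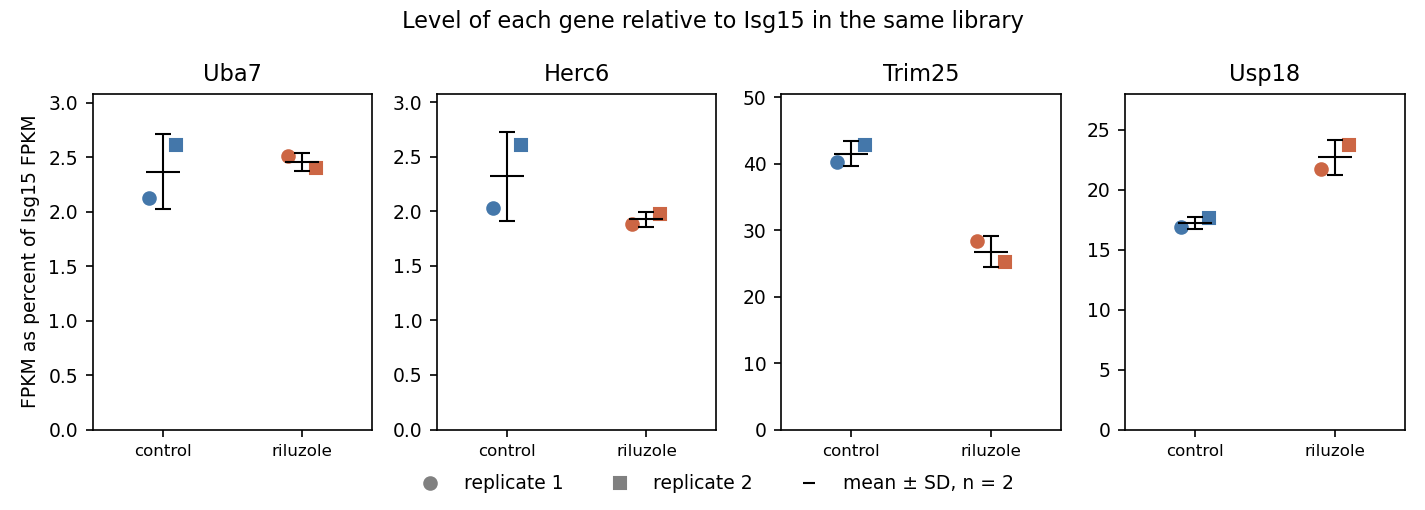
FPKM of Uba7, Herc6, Trim25 and Usp18 as a percent of the Isg15 FPKM of the same library (vertical axes from 0); circles are replicate 1, squares replicate 2, and black bars the mean ± SD (n = 2). The Trim25 share is lower and the Usp18 share higher in both riluzole libraries, while that of Uba7 overlaps.

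The genes whose profile over the 4 libraries was most like each member were taken from the 3878 protein-coding genes that averaged at least 100 normalised counts. Likeness was the Euclidean distance between log2(normalised count + 1) profiles centred on the control mean. Such a distance depends largely on the size of the fold change, so genes with like fold changes lie near each other. Shared regulation was not tested. The nearest to Isg15 were the interferon-induced Oasl1 (distance 0.05) and Ifi44 (0.14). The nearest to Usp18 were Rsad2, which encodes the antiviral enzyme viperin (0.14), and the transcription factor gene Irf7 (0.14). Herc6 was nearest to the semaphorin gene Sema6d and to Ifitm1, an interferon-induced membrane protein gene (both 0.12). Trim25 was nearest to H2-T23, a non-classical MHC class I gene (0.05), and Rap1gap, which encodes a GTPase activator of Rap1 (0.06). Uba7 was nearest to Btc, which encodes the growth factor betacellulin (0.05), and to Id3, which encodes an inhibitor of helix-loop-helix transcription factors (0.14). Within the 5, Isg15 and Uba7 were closest (0.23), and Trim25 and Usp18 farthest apart (1.47). Ifitm1 and H2-T23 have near-identical copies.

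Type I interferon acts on the members through its receptor, the JAK kinases and transcription factors that these activate. Of 7 genes of the receptor and its factors, 4 were listed and all 4 rose. The median of their log2 fold changes was 1.09, against -0.19 over all listed genes. Stat2, one of these factors, went from 567 ± 25.3 to 1523 ± 24.2 normalised counts (SD, n = 2), a 2.68-fold rise with an edgeR adjusted p of 8.14e-17. Irf9, another of them, rose 1.68-fold. Ifnar1, Ifnar2 and Jak1 were not listed, which does not show that they were unchanged. Irf9 overlaps neighbouring annotation on the same strand.

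Of 6 genes of the RNA-sensing branch in which TRIM25 acts, 4 were listed, and 3 rose and 1 fell. Ddx58, the RIG-I gene, went from 1321 ± 86.2 to 2509 ± 238 normalised counts (1.89-fold; SD, n = 2), close to the 1.80-fold of Trim25 itself. The sensor gene Ifih1 rose 2.08-fold, and Dhx58, whose product LGP2 modulates both sensors, 3.80-fold. Dhx58 shares 141 exonic bases with Dhx58os on the opposite strand. Zc3hav1, which encodes the zinc-finger antiviral protein that works with TRIM25, was at 0.918 of its control level (log2 fold change -0.12; edgeR adjusted p = 0.0159). Its call was lost without control replicate 1 (0.0681), control replicate 2 (0.0718) or riluzole replicate 1 (0.185), and under DESeq2 scaling its log2 fold change was 0.04. Its adjusted p in the authors' deposited table is 0.0728.

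Of 19 proteins reported as ISG15 targets, 13 had a listed gene, and 9 were higher and 4 lower. The median of their log2 fold changes was 0.40. Ifit1, an antiviral protein that binds foreign RNA caps, rose 5.29-fold, and Ifih1 is named above. Pcna, the replication clamp, fell to 0.743 of its control level (2970 ± 6.35 to 2207 ± 70.3 normalised counts, SD, n = 2). Its coding sequence has a near-identical copy, Pcna-ps2, alike at 99.2% over 781 of 783 bases, so its level is less certain. None of the 6 other proteases reported to cleave ISG15 (Usp2, Usp5, Usp13, Usp14, Usp16 and Usp21) was listed.

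Listed enzyme genes of the sister pathways, which attach other ubiquitin-like proteins, were mostly called lower. Of 9 other E1 genes, 5 were listed, of which 4 fell and none was called higher (median log2 fold change -0.22). Sae1, a subunit of the SUMO E1, had 3836 and 3818 normalised counts in the controls and 2970 and 3142 with riluzole, 0.798 of the control level (edgeR adjusted p = 5.72e-07), and Uba3, a subunit of the NEDD8 E1, was at 0.860 of control; under DESeq2 scaling Uba3 was not called (log2 fold change -0.05; adjusted p = 0.855). Uba1, the main ubiquitin E1, was not called (log2 fold change 0.09, edgeR adjusted p = 0.117). It was called higher under TMM (0.19) and DESeq2 scaling (0.25), and with a replicate block in the edgeR fit (0.088, adjusted p = 0.0269). Under DESeq2 scaling the sign of Uba2 changed (0.0067). Uba1 and Uba2 were named after their values were seen.

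Of 14 genes of ubiquitin and other ubiquitin-like modifiers, 6 were listed, 3 higher and 3 lower. Ufm1 fell to 0.834 and Fau, which encodes a ubiquitin-like protein fused to a ribosomal protein, to 0.885 of control. Neither fall was called under DESeq2 scaling (adjusted p = 0.363 for Ufm1 and 1 for Fau), and under TMM scaling that of Fau was not (0.168). Fau has a near-identical copy. Of 4 other HERC ligase genes, Herc1 and Herc2 were listed, and both fell, to 0.820 and 0.821 of control; under DESeq2 scaling neither was called (adjusted p = 0.0898 and 0.0930). Herc1 shares 695 exonic bases with Gm28379 on the opposite strand. The listed genes of other E1 enzymes and other HERC ligases had log2 fold changes of 0.09 or less, while Uba7 and Herc6 had 1.53 and 1.21.

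**Figure D4:**
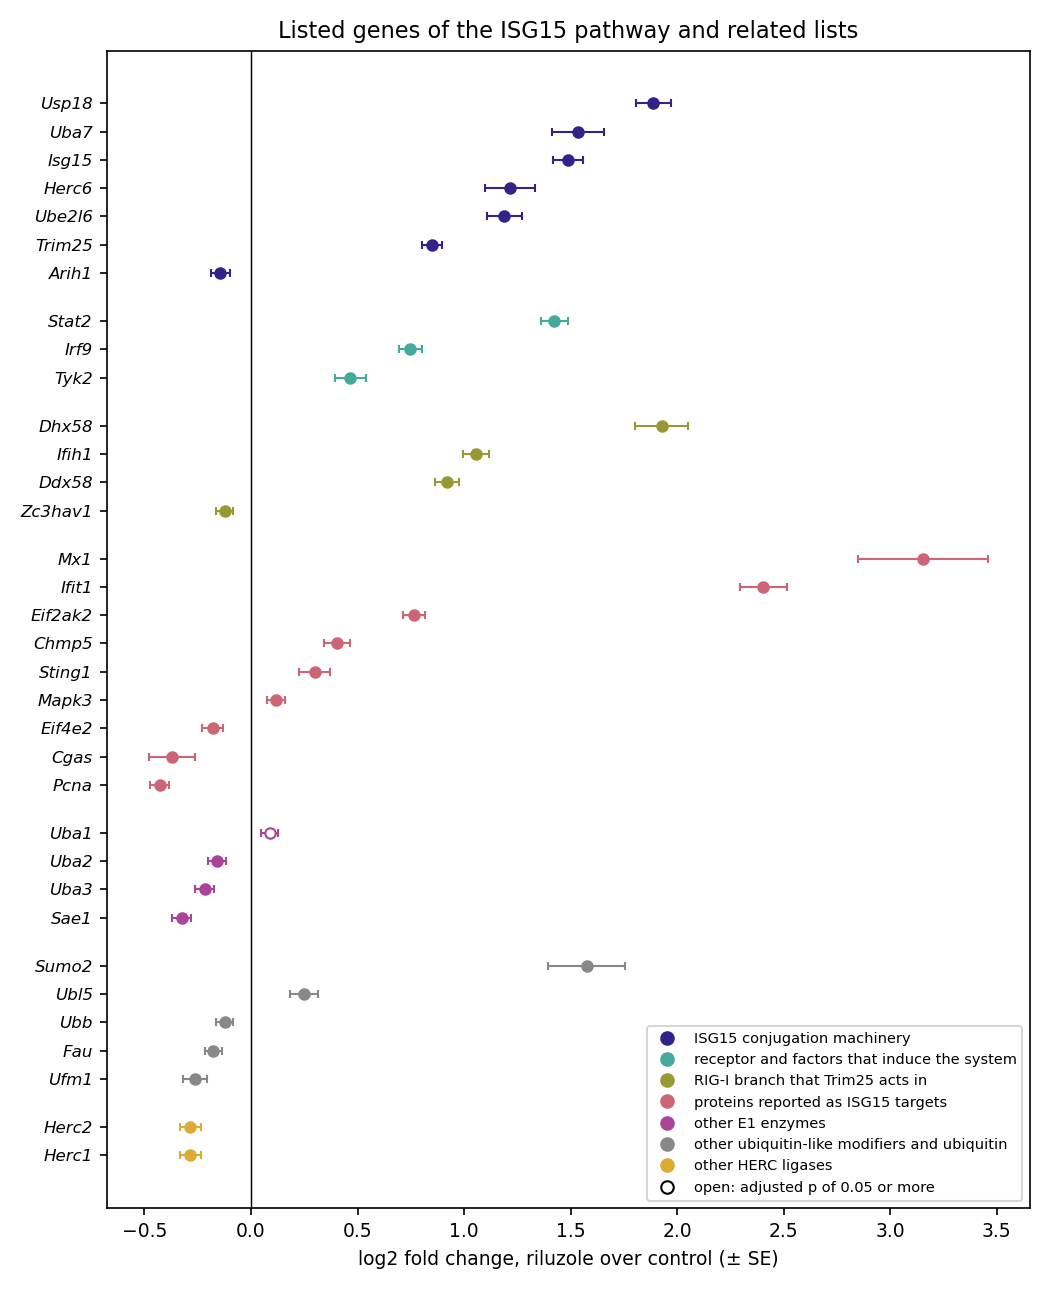
Log2 fold change, riluzole over control, with its SE (horizontal axis) for listed genes of each list (colours, 1 row per gene, shown under the first list that holds it); filled points passed an edgeR adjusted p of 0.05. The 5 members and Ube2l6 lie between 0.85 and 1.89, and the other E1 and HERC genes shown between -0.33 and 0.09, with the authors' size factors.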

How the data were processed

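Messenger RNA of 4 libraries was measured, 2 control and 2 riluzole; groups and replicate numbers came from the labels. Build mm39, HISAT2, featureCounts 1.5.0-p3, edgeR and DESeq2 are named in the submitters' processing notes; their settings and the strandedness were not found in the labels. Raw read counts per gene were deposited, per the file headers. The deposited normalised values are a signal: in each library, count over normalised value is a constant size factor (0.904 to 1.19). The deposited FPKM values divide counts by gene length and library total, per the file headers. The authors also deposited a p-value, an adjusted p and a log2 fold change per gene, and the tables list only genes with p under 0.05.

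Both tables were joined (4295 genes) and fitted whole in R 4.3.3 with the quasi-likelihood test of edgeR 4.0.16. The authors' size factors, no filter and no covariates were used. Benjamini-Hochberg adjustment was over 12601 genes, which assumes that unlisted genes had larger p-values; calls needed an adjusted p below 0.05. The SE of a log2 fold change was its size divided by the square root of F. The test was also run on simulated counts of mostly unchanged genes. That run cannot show how the test behaves on genes selected by p-value. Alternatives were other scalings, DESeq2 1.42.0, the authors' adjusted p, a filter at a mean normalised count of 10, a replicate block and leaving out each library. Copies (BLAST+ 2.17.0, at least 95% identity over 200 bases or 50% of the coding sequence) and shared exons (at least 50 bases) were sought in GENCODE M21 on GRCm38, by gene identifier. Ratios were tested in SciPy 1.17.1; tables and figures used Python 3.11.15, pandas 2.3.3 and matplotlib 3.10.9. Motifs were searched on both strands of 250 bases upstream of RefSeq starts (GRCm38.p6).

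The members and lists were chosen with earlier results of these data known. Named genes are the 5 members, the listed machinery genes, the 3 called genes of smallest adjusted p in each list with up to 2 called against its majority, and the 2 most alike genes per member. The marker genes, and those named as not listed, lie outside that rule. Some listed genes are not reported here, in text or figures.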

Additional observations from a re-analysis of the deposited data

How the results depend on the processing

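All 5 members were called higher under each of the 11 alternatives (3 scalings, DESeq2, the authors' adjusted p, the filter, the replicate block and each of 4 libraries left out). Their log2 fold changes ranged from 1.39 to 1.65 for Isg15, 1.48 to 1.70 for Uba7, 1.09 to 1.38 for Herc6, 0.80 to 1.01 for Trim25 and 1.73 to 2.05 for Usp18. With TMM factors over the listed genes 1656 genes were called lower, 8 of them in the fixed lists without the members, and with DESeq2 size factors 1042 and 3, against 2501 and 14. DESeq2 size factors turned the log2 fold changes of Arih1 (0.021), Zc3hav1 (0.042), Ubb (0.042) and Uba2 (0.0067) positive. Both scalings centre on the listed genes, more of them lower than higher, which by construction moves fold changes up. Without 1 library, 1517 to 1632 genes were called higher and 2144 to 2305 lower, and the fixed lists had 14 to 16 higher and 10 to 14 lower. Log2 ratio changes to Isg15 without 1 library ranged from -0.091 to 0.21 for Uba7, -0.44 to -0.08 for Herc6, -0.72 to -0.55 for Trim25 and 0.33 to 0.46 for Usp18. Ratios of normalised counts gave the same values by construction. On log2 FPKM profiles, taken without the added 1, 1 of the 2 genes nearest to Uba7 was kept. Gene length and library scaling cancel in the distance by construction, so the choices differ only through the added 1. The longer motif left 0 of 4 members with a match. Replicate numbers are shared between groups, but deviations of same-numbered libraries correlated at 0.08 over 3998 genes, so they were not taken as pairs; with the replicate block 1763 genes were called higher and 2510 lower, no member's call changed, and Uba1 was called higher (log2 fold change 0.088; adjusted p = 0.0269). Depth limits Uba7 and Herc6 most, with 118 to 420 reads per library. P-values of genes with unequal replicates were smaller in edgeR than in the authors' deposited table for Sumo2 (3.30e-08 against 0.0451, adjusted).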

Other observations

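Sumo2, which encodes a ubiquitin-like modifier of the SUMO family, had 113 normalised counts in control replicate 1, 284 in control replicate 2, 540 in riluzole replicate 1 and 696 in riluzole replicate 2. Its group means were 199 ± 121 and 618 ± 111 (SD, n = 2), and both riluzole libraries lay above both controls. The rise was 2.98-fold (log2 fold change 1.58), and its size rested on the controls, since the log2 fold change was 1.11 without control replicate 1 and 2.44 without control replicate 2. The adjusted p was 3.30e-08 in edgeR (Benjamini-Hochberg) and 0.0451 in the authors' deposited table. Its coding sequence of 285 bases has an identical copy in the reference annotation, Gm10241 (100% over 285 bases), among other near-identical copies.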
